A study of Homo sapiens with 4 samples.

Results

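The transforming growth factor beta (TGF-beta) and bone morphogenetic protein (BMP) signalling genes were followed in SCC-15, a widely used human cell line from a squamous carcinoma of the tongue, after transfection of a microRNA mimic (a short synthetic duplex that acts as the mature microRNA). The members were 37 genes named by symbol, from ligands to target genes, and every probe set that the platform annotation gave to exactly 1 of them was taken. This found 113 of 49293 probe sets, for 36 of the 37 genes. BMPR1A was not analysed here for want of such a probe set. Of the 113 probe sets, 98 lay above the lowest 30% of all probe sets by mean value and were tested; they stood for 34 genes, with 1 to 7 probe sets each.

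Biotin-labelled RNA of 4 samples was hybridised to 1-colour Affymetrix arrays, 2 of SCC-15 cells given the mimic and 2 of SCC-15 cells given the negative control miR-NC. Both groups received 30 nM of RNA 24 h after the cells were seeded and were harvested after a further 36 h. The series title and its design text named the mimic miR-762, whereas the labels of both mimic samples named it miR-585-5p. All 4 arrays come from 1 cell line, and the labels do not tell whether the 2 replicates of a group were grown separately. The p-values therefore rest on array-to-array spread, which may be technical.

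TGF-beta, activin and BMP ligands bind pairs of type I and type II receptor kinases at the cell surface. The activated type I receptor phosphorylates SMAD proteins, SMAD2 and SMAD3 after TGF-beta or activin and SMAD1 and SMAD5 after BMP, which enter the nucleus with SMAD4 and change transcription. In squamous epithelia the TGF-beta branch is known to restrain proliferation and to promote migration and matrix production, and many pathway members are themselves induced as feedback inhibitors.

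The mature sequences of both named microRNAs are shown because the sources name both. They are RefSeq entries of GRCh38.p14, 5′ to 3′, with the seed (bases 2 to 8, the part that pairs with target messages) in capitals.
hsa-miR-762 (chr16:30893951-30893972, plus strand): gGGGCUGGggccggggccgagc
hsa-miR-585-5p (chr5:169263649-169263670, minus strand): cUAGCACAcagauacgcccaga
The 2 seeds carry the same base at 2 positions only. Target sites in the members' messages were not searched here.

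Values are log2 of the deposited intensities, 1 probe set per gene unless stated, and differences are mimic minus control with limma's moderated standard error (SE). A gene rose or fell where its Benjamini-Hochberg adjusted p over all 14340 genes tested was under 0.05 (limma). Replicate arrays correlated at r = 0.998 (mimic) and 0.997 (control) across probe sets (not independent of each other). All 5 squamous epithelial markers read lay between 9.73 and 12.07 in mean log2 intensity (KRT5, KRT14, DSG3, CDH1 and SFN), and 3 of 6 fibroblast and 2 of 4 leukocyte markers lay below the filter level of 2.83. Of the squamous markers KRT14 (1.15) and KRT5 (0.48) rose, and the summed level of the 5 was 13.27 and 13.30 in the mimic arrays and 12.95 and 12.88 in the control arrays. CD14 was the only one of the fibroblast, leukocyte and endothelial markers to pass as a gene, at 5.36 (mimic) and 4.83 (control). The summed level of the 6 fibroblast markers was 5.79 and 5.96 in the mimic arrays and 6.04 and 6.09 in the control arrays, and that of the 4 leukocyte markers 5.85 and 5.85 against 5.62 and 5.40 (log2 of summed intensity). All 4 endothelial markers lay above that level, with summed levels of 6.20 and 6.21 in the mimic arrays and 6.34 and 6.38 in the control arrays. The part of these markers' cells in the results was not tested. As the RNA is from bulk cells, a change in the share of cells in some state and a change per cell cannot be told apart.

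Of the 34 member genes tested, 7 rose, 9 fell and the other 18 missed the threshold. The genes that rose were SMAD5, TGFBR1, TGFB1, TGFBR3, SMAD3, SKI and LTBP3, and those that fell were TGFBR2, BMPR2, SMURF1, INHBA, ACVR1B, PMEPA1, SMAD4, SMURF2 and FST. These calls are of the brightest probe set only. For SMAD4 and FST the direction depended on the probe set, with 0.19 and 0.026 when all their probe sets were averaged. Called members made up 47.1% of those tested, beside 30.1% of all genes (17.7% rose and 12.3% fell), and on the brightest probe set no member changed by 2-fold or more, beside 2.26% of all genes. A single dimmer probe set, of SMAD2, did so. The median difference was 0.041 over the members and -0.018 over all genes, and the median size of the difference was 0.20 for the members and 0.18 for all genes. The groups did not overlap for 25 of the 34 members, or 73.5%, beside 70.4% of all genes. With the probe sets of each gene averaged instead, 7 of the 34 members rose and 5 fell (limma), beside 29.8% of all genes called.

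When the deposited values were quantile-normalized once more, 5 members rose and 10 fell, LTBP3 and SKI no longer passing and SMAD1 passing as lower. On leaving out mimic replicate 1 or mimic replicate 2 no member passed in limma (0 of all 14340 genes did), while 16 and 13 of the 34 members had an unadjusted p under 0.05 (47.1% and 38.2%, beside 29.3% and 29.8% of all genes). When control replicate 1 was left out only SMAD5, TGFBR1 and TGFB1 passed among the members, and when control replicate 2 was left out these 3 and SMURF1. With 2 arrays a group, the smallest two-sided p of an exact permutation test for a single gene is 0.333, so each call rests on the spread shared across genes.

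**Figure D1:**
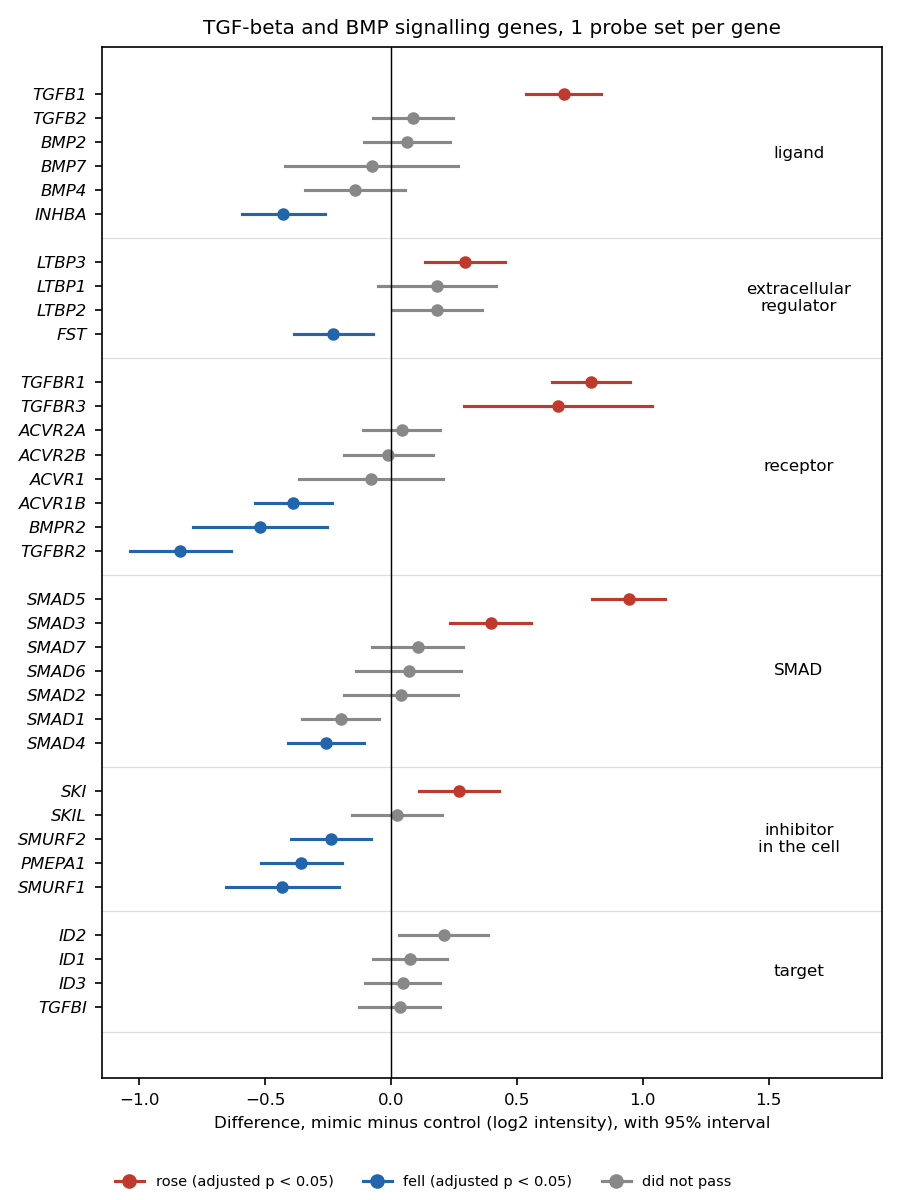
Difference between mimic and control arrays (log2 intensity, x axis) of the 34 tested member genes, grouped by role, with limma's 95% interval (n = 2 arrays per group); red genes rose, blue genes fell and grey genes did not pass. The receptor and SMAD groups hold both the largest increases (SMAD5 at 0.94, TGFBR1 at 0.79) and the largest decrease (TGFBR2 at -0.84), while all 4 target genes lie between 0.034 and 0.21.

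Among the ligand genes, 1 of 6 tested rose and 1 fell (16.7% each, beside 17.7% and 12.3% of all genes). TGFB1, the ligand that gives the pathway its name, had 5.45 and 5.40 in the mimic arrays, against 4.74 and 4.74 in the control arrays. The 2 groups were far apart and the replicates close together, and TGFB1 rose 1.61-fold (0.68 ± 0.058 SE, adjusted p = 0.00278) on its only probe set. INHBA, which encodes the subunit of activin A, read 9.46 and 9.43 in the mimic arrays, against 9.83 and 9.93 in the control arrays. It fell 1.34-fold (-0.43 ± 0.065, adjusted p = 0.0113), and its second probe set fell as well (-0.32).

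The other ligand genes did not pass. BMP2 was at 7.58 and 7.67 in the mimic arrays, against 7.52 and 7.60 in the control arrays, values that interleave (0.063, 95% interval -0.11 to 0.23). BMP4, a BMP ligand of many epithelia, had a difference of -0.14 (95% interval -0.34 to 0.057), without overlap of the groups. TGFB2, another TGF-beta ligand, was at 3.48 and 3.57 in the mimic arrays, against 3.44 and 3.44 in the control arrays (0.086), and its dimmer probe set had the opposite sign (-0.26). For BMP7 the probe sets disagreed in call: the one used read 3.52 and 3.73 in the mimic arrays, against 3.86 and 3.54 in the control arrays (-0.076), whereas the dimmer one rose by 0.83 with 3.77 and 3.75 (mimic), against 2.999 and 2.87 (control). All 3 probe sets of TGFB3, of the same ligand family, lay below the filter level, between 1.25 and 2.77 on all arrays, and the gene was not tested.

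Outside the cell, ligands are stored and trapped by binding proteins. Of these, 1 of the 4 genes tested rose and 1 fell, beside 17.7% and 12.3% of all genes. LTBP3, a latent TGF-beta binding protein, had 7.04 and 7.12 in the mimic arrays, against 6.81 and 6.77 in the control arrays and rose by 0.29 ± 0.062 (adjusted p = 0.0258), a call that was lost under quantile normalization (adjusted p = 0.0747) and when _s_at and _x_at probe sets, which can match several transcripts, were dropped (0.19, adjusted p = 0.273). Of its other probe sets, 2 had positive differences that did not pass and 1 was at -0.084. LTBP1 was at 4.66 and 4.73 in the mimic arrays, against 4.40 and 4.62 in the control arrays, and its 5 probe sets ranged from -0.019 to 0.43 without any passing. LTBP2 had 8.27 and 8.38 in the mimic arrays, against 8.10 and 8.18 in the control arrays and did not pass (0.18, adjusted p = 0.106), while its dimmer probe set rose by 0.39.

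FST, which encodes follistatin, the secreted inhibitor that binds activin, read 6.85 and 6.79 in the mimic arrays, against 7.03 and 7.07 in the control arrays. Its decrease of 0.23 on the log2 scale (-0.23 ± 0.061, adjusted p = 0.0459) was the smallest called among the members. The call held in 5 of 10 alternative settings that kept all arrays, and the dimmer probe sets were at 0.012 and 0.30. Averaging the 3 probe sets gave 0.026. The direction for FST therefore depended on the probe set.

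Receptor genes moved in opposite directions, with 2 of 8 tested higher and 3 lower (25% and 37.5%, beside 17.7% and 12.3% of all genes). TGFBR1, the type I receptor of TGF-beta, had 8.90 and 8.96 in the mimic arrays, against 8.16 and 8.12 in the control arrays, and rose 1.74-fold (0.79 ± 0.060, adjusted p = 0.00210). Its 2 other probe sets were below the filter level. TGFBR2, the type II receptor that binds TGF-beta and activates TGFBR1, showed the reverse, with 8.26 and 8.09 in the mimic arrays, against 9.01 and 9.01 in the control arrays. It fell 1.79-fold (-0.84 ± 0.078, adjusted p = 0.00344), the largest decrease among the members, and its dimmer probe set fell by 0.36. The 2 partners of the TGF-beta receptor thus moved in opposite directions, and both calls held in the 9 alternatives that kept all arrays and could be run. All tested probe sets of TGFBR1 and TGFBR2 are of the _s_at kind, so neither gene was in the alternative without such probe sets.

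TGFBR3, which encodes betaglycan, the co-receptor that presents TGF-beta, had 5.17 and 5.47 in the mimic arrays, against 4.81 and 4.51 in the control arrays. The replicates lay further apart than for the other called members, with SDs of 0.21 in each group (n = 2), and TGFBR3 rose 1.58-fold (0.66 ± 0.14, adjusted p = 0.0285). The increase was 0.51 without mimic replicate 2 and 0.81 without mimic replicate 1 or control replicate 1. A second probe set differed by 0.53 without passing and the dimmest by -0.15.

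ACVR1B, an activin type I receptor, read 7.76 and 7.82 in the mimic arrays, against 8.16 and 8.19 in the control arrays, and fell 1.31-fold (-0.39 ± 0.059, adjusted p = 0.0116), while its 2 other tested probe sets were negative without passing (-0.088 and -0.17). BMPR2, the type II receptor of BMPs, was at 6.81 and 6.92 in the mimic arrays, against 7.51 and 7.26 in the control arrays, with the wider spread among the controls. It fell 1.44-fold (-0.52 ± 0.10, adjusted p = 0.0225), and its next probe set fell by the same 0.52, with 6.19 and 6.24 (mimic), against 6.82 and 6.64 (control). The dimmest BMPR2 probe set was negative without passing (-0.32), at 4.73 and 5.07 (mimic), against 5.34 and 5.10 (control). The decrease of BMPR2 was 0.40 without control replicate 1 and 0.65 without control replicate 2.

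Further receptor genes did not pass. ACVR1, a BMP type I receptor, had 6.42 and 6.64 in the mimic arrays, against 6.71 and 6.51 in the control arrays (-0.081), with all 4 probe sets below 0 and the dimmest of them called lower (-0.31). The activin type II receptors ACVR2A (0.042, 95% interval -0.11 to 0.19) and ACVR2B (-0.010, -0.19 to 0.17) had overlapping groups. The probe set of BAMBI, a decoy receptor that lacks the kinase, was below the filter level, at 2.85 and 2.81 in the mimic arrays and 2.66 and 2.92 in the control arrays, and was not tested.

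**Figure D2:**
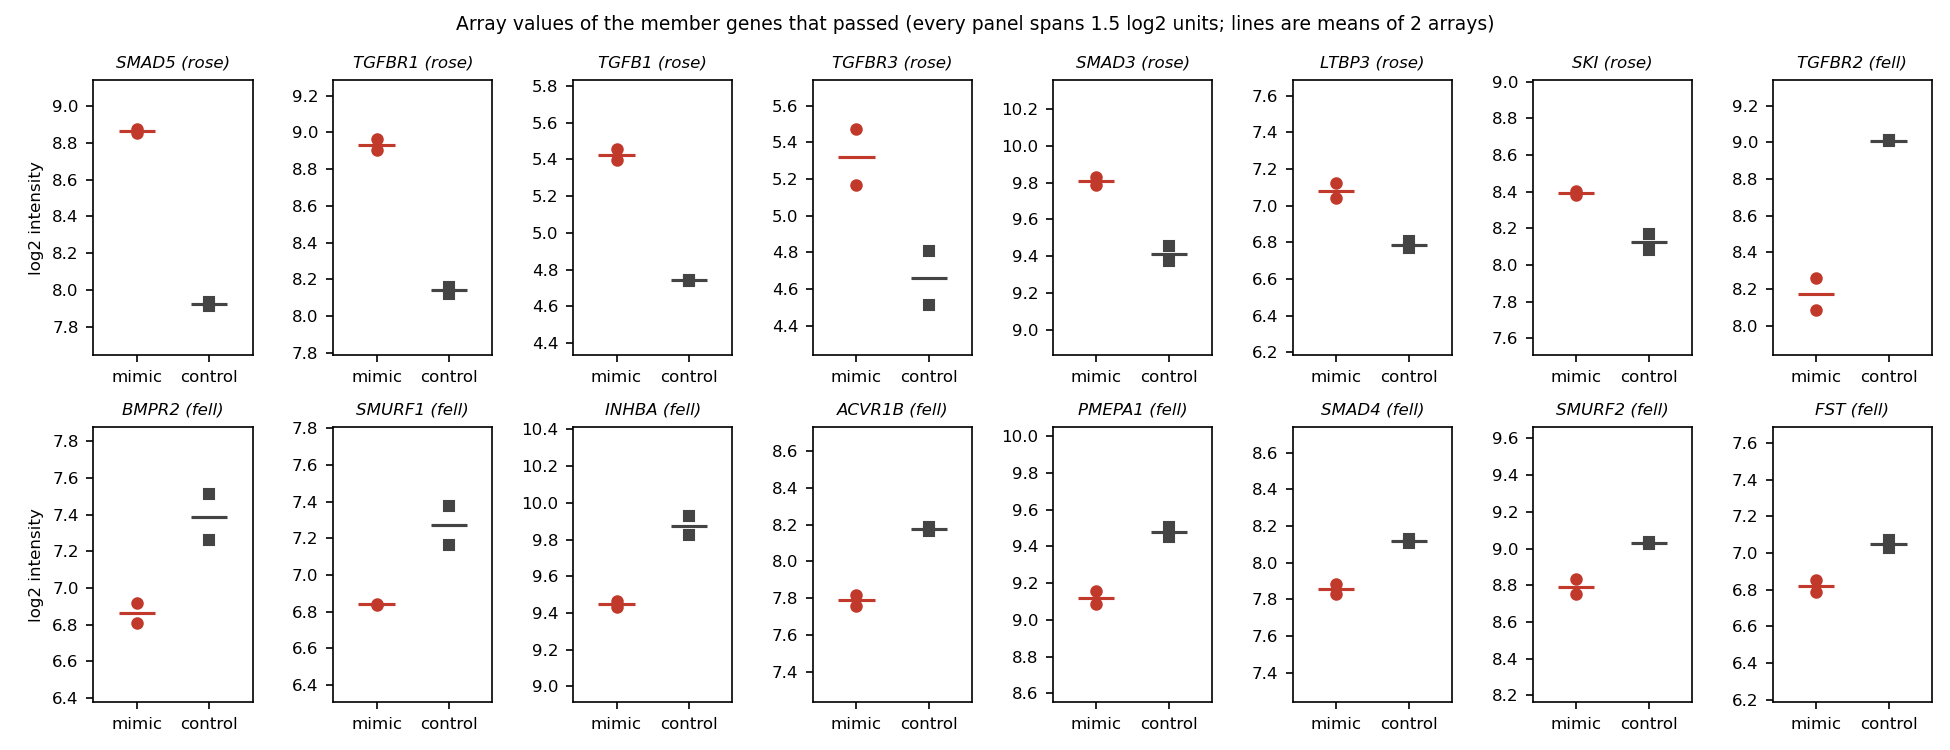
Log2 intensity (y axis) on each array of the 16 member genes that passed, with mimic arrays as red circles, control arrays as grey squares and the group means as lines; every panel spans the same number of log2 units. SMAD5, TGFBR1 and TGFB1 show replicates much closer to each other than the groups are, whereas TGFBR3, BMPR2 and SMURF1 have the widest replicate spreads.

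Of the 7 SMAD genes, 2 rose and 1 fell (28.6% and 14.3%, beside 17.7% and 12.3% of all genes). SMAD5, a signal carrier of the BMP branch, showed the largest increase of all members, with 8.86 and 8.88 in the mimic arrays, against 7.91 and 7.93 in the control arrays. It rose 1.92-fold (0.94 ± 0.056, adjusted p = 0.00133). All 5 of its probe sets rose, by 0.61 to 0.94, the second brightest reading 7.08 and 7.29 in the mimic arrays, against 6.31 and 6.31 in the control arrays. SMAD1, which acts beside SMAD5, did not pass, at 7.60 and 7.62 in the mimic arrays, against 7.84 and 7.78 in the control arrays (-0.20, 95% interval -0.35 to -0.047, adjusted p = 0.0600), and its dimmer probe set was at 0.063. SMAD1 passed as lower in 4 of 10 alternatives that kept all arrays, among them quantile normalization (-0.29).

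SMAD3, a carrier of the TGF-beta and activin branch, had 9.83 and 9.79 in the mimic arrays, against 9.37 and 9.45 in the control arrays. It rose 1.32-fold (0.40 ± 0.063, adjusted p = 0.0127), and the next brightest probe set rose by 0.52; the 3 others, with means under 3.8, ranged from -0.15 to 0.0072, and the mean over all 5 did not pass (0.16, adjusted p = 0.0885). SMAD2, the partner of SMAD3, gave different answers by probe set. The brightest read 7.002 and 7.21 in the mimic arrays, against 7.09 and 7.04 in the control arrays (0.041, adjusted p = 0.748), whereas 3 dimmer ones rose. The first of these had 5.42 and 5.68 in the mimic arrays, against 4.04 and 4.26 in the control arrays (1.40 ± 0.12, adjusted p = 0.00371 over probe sets), the largest difference of any member probe set, and the other two rose by 0.95 and 0.91. With all 7 probe sets averaged, SMAD2 passed as higher (0.53, adjusted p = 0.00317).

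SMAD4, the partner shared by both branches, split between its probe sets and was the only member with calls in both directions. Its brightest probe set read 7.83 and 7.89 in the mimic arrays, against 8.13 and 8.11 in the control arrays and fell (-0.26 ± 0.059, adjusted p = 0.0308). The next called one read 6.40 and 6.36 in the mimic arrays, against 5.98 and 5.89 in the control arrays and rose (0.44, adjusted p = 0.0146 over probe sets), as did a dimmer one (0.37). All 5 tested probe sets other than the brightest had positive differences, and their mean with the brightest was 0.19 (adjusted p = 0.107), so no direction is given for the gene as a whole.

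The inhibitory SMAD genes, which the pathway induces to limit itself, did not pass. SMAD7, which blocks the TGF-beta receptor, was at 5.69 and 5.73 in the mimic arrays, against 5.54 and 5.67 in the control arrays (0.11, 95% interval -0.076 to 0.29). SMAD6, the inhibitor of the BMP branch, was at 4.72 and 4.70 in the mimic arrays, against 4.73 and 4.55 in the control arrays (0.070), while a dimmer probe set rose, with 4.70 and 4.67 in the mimic arrays, against 4.26 and 4.09 in the control arrays (0.51, adjusted p = 0.0165 over probe sets), and another was at -0.14.

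Of the 5 other tested genes grouped as inhibitors inside the cell, 3 fell and 1 rose, beside 12.3% and 17.7% of all genes. The inhibitory SMAD6 and SMAD7 were counted with the SMAD genes and did not pass. SMURF1, a ubiquitin ligase that marks receptors and SMADs for degradation, had 6.84 and 6.84 in the mimic arrays, against 7.38 and 7.17 in the control arrays, and fell 1.35-fold (-0.43 ± 0.087, adjusted p = 0.0234), with -0.21 on its dimmer probe set. SMURF2, a related ligase, read 8.83 and 8.75 in the mimic arrays, against 9.03 and 9.03 in the control arrays. Its decrease of 0.24 on the log2 scale (adjusted p = 0.0425) passed in 5 of 10 alternatives that kept all arrays. PMEPA1, a TGF-beta-induced membrane protein that sequesters SMAD2 and SMAD3, was at 9.09 and 9.16 in the mimic arrays, against 9.45 and 9.51 in the control arrays. It fell 1.28-fold (-0.36 ± 0.062, adjusted p = 0.0161), and all 3 of its probe sets fell, by 0.36 to 0.55.

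SKI, a nuclear co-repressor that binds SMAD proteins, went the other way, with 8.38 and 8.40 in the mimic arrays, against 8.08 and 8.17 in the control arrays. It rose 1.21-fold (0.27 ± 0.062, adjusted p = 0.0327), a call that was lost under quantile normalization (0.18, adjusted p = 0.0718) and that its 3 other tested probe sets did not share (-0.0042 to 0.23). SKIL, the related co-repressor and a feedback target of TGF-beta, read 3.89 and 3.75 in the mimic arrays, against 3.81 and 3.79 in the control arrays (0.023, 95% interval -0.16 to 0.20). Its groups overlapped.

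None of the 4 target genes passed in limma (0 of 4, beside 30.1% of all genes). At an unadjusted p under 0.05 in limma there was 1 of 4, beside 6455 of all 14340 genes. The brightest probe set of each of the 4 was of the _x_at kind, which can match several transcripts. Without _s_at and _x_at probe sets ID1 was at 0.076, ID3 at 0.23 and TGFBI at -0.063, none passing, and ID2 had no probe set left. ID1, a transcriptional inhibitor induced by BMP, had 11.13 and 11.15 in the mimic arrays, against 11.08 and 11.04 in the control arrays (0.076, 95% interval -0.070 to 0.22), and the dimmest of its 3 probe sets rose by 0.30. ID3, a close relative, had 10.42 and 10.48 in the mimic arrays, against 10.40 and 10.41 in the control arrays (0.046, -0.10 to 0.20). ID2 was at 6.34 and 6.46 in the mimic arrays, against 6.20 and 6.19 in the control arrays (0.21, 0.032 to 0.39, adjusted p = 0.0759), and its other probe set was at 0.011. The 2 other probe sets of ID3 did not pass (0.23 and 0.095). On the brightest probe sets the intervals of these 3 genes reached no higher than 0.39, and over all their probe sets no higher than 0.48.

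TGFBI, a matrix protein gene named for its induction by TGF-beta, read 11.67 and 11.76 in the mimic arrays, against 11.69 and 11.67 in the control arrays. Its difference of 0.034 had a 95% interval of -0.13 to 0.19, and its 4 probe sets ranged from -0.063 to 0.067. Neither SMAD7, SKIL nor TGFBI, all known to respond to TGF-beta, passed, while PMEPA1, another such gene, fell. These genes do not stand for all such genes. Among 38 tested textbook TGF-beta targets outside the members, 9 rose and 6 fell (23.7% and 15.8%, beside 17.7% and 12.3% of all genes).

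**Figure D3:**
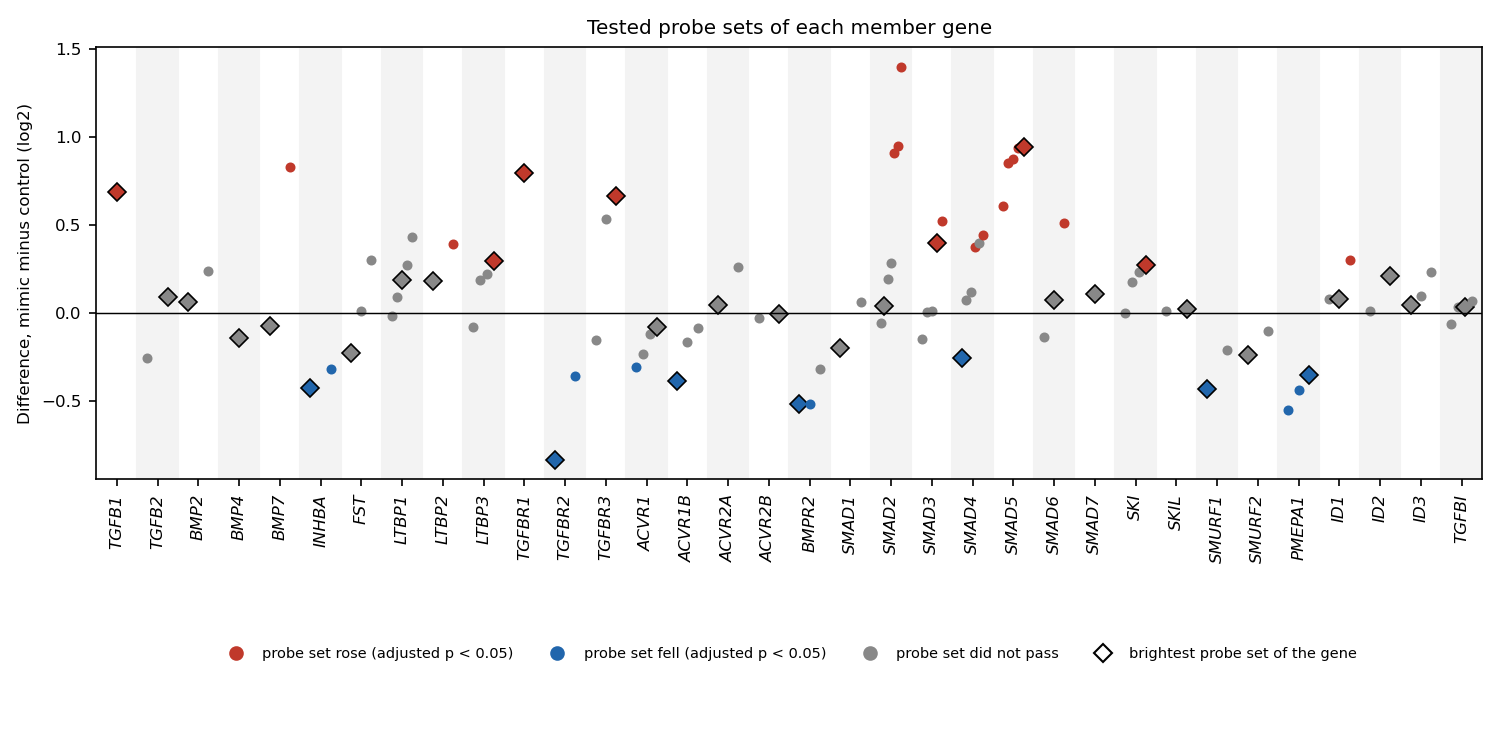
Difference between mimic and control arrays (log2, y axis) of each of the 98 tested probe sets, by member gene (x axis); diamonds mark the brightest probe set of each gene, and colours give the calls of the fit over probe sets. SMAD5, PMEPA1, INHBA and TGFBR2 have every probe set called the same way, SMAD4 has probe sets called in both directions, and the 3 red probe sets of SMAD2 lie apart from its brightest.

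Fitted probe set by probe set, 21 of the 98 member probe sets rose and 13 fell, or 34.7% called, beside 22.4% of all 31711 probe sets tested (14.5% rose and 7.95% fell; limma, adjusted over those). Among 30 genes with several tested probe sets, 13 had differences of both signs. Of the 16 called genes, TGFB1 and TGFBR1 rested on 1 probe set, 8 had probe sets of 1 sign (INHBA, TGFBR2, ACVR1B, BMPR2, SMAD5, SMURF1, SMURF2 and PMEPA1) and 6 had both signs (FST, LTBP3, TGFBR3, SMAD3, SMAD4 and SKI). The probe sets that represented FST and SMURF2 did not pass in the fit over probe sets. Conversely BMP7, LTBP2, ACVR1, SMAD2, SMAD6 and ID1 did not pass as genes and had 1 or more probe sets that did.

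The rest of the pathway was read from a list of 84 other ligands, antagonists, receptors and regulators. Among 69 tested, 12 rose and 8 fell, with a median difference of -0.061; 29.0% were called, beside 30.1% of all genes. ACVR1C, a type I receptor of activin B and nodal, rose most, with 5.32 and 5.42 in the mimic arrays, against 3.89 and 3.78 in the control arrays (1.53 ± 0.071, 2.90-fold, adjusted p = 0.00107). INHBE, which encodes an activin subunit, had 6.79 and 6.83 in the mimic arrays, against 5.54 and 5.94 in the control arrays and rose by 1.07 ± 0.14, with the control arrays apart from each other. BMPR1B, a BMP type I receptor, rose by 0.92 ± 0.14 with 3.57 and 3.24 in the mimic arrays, against 2.62 and 2.36 in the control arrays. Its control values lay below the filter level, so it was tested only through its mimic values, and its call gives no separate support. ROCK1, a kinase downstream of RHOA, rose by 0.82, although its second probe set was at 0.068.

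The other 8 that rose lay between 0.31 and 0.66. They included PPM1A, a SMAD phosphatase, at 0.37 in its brightest probe set and at up to 2.26 in the 4 others, and the BMP antagonist gene NOG (0.37). GDF15, a stress-induced member of the ligand family, fell most, with 8.06 and 7.89 in the mimic arrays, against 8.66 and 8.76 in the control arrays (-0.74 ± 0.084, adjusted p = 0.00555), and its 5 probe sets were all negative. CHRDL2, a chordin-like antagonist, fell by 0.41 on the log2 scale, the receptor deubiquitinase gene USP15 by 0.40 (1 of 4 probe sets had the opposite sign) and the inhibin alpha gene INHA by 0.37. BMP8A and BMP8B, near-identical paralogs that their probe sets may not separate, gave -0.35 and 0.31. With quantile normalization 10 genes of this list rose and 11 fell. Without control replicate 1 or 2, 3 and 2 genes rose and 0 fell in limma, and 15 and 14 of the 69 were lower at an unadjusted p under 0.05 (21.7% and 20.3%, beside 18.8% and 16.1% of all genes).

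A list of 47 textbook TGF-beta targets outside the members also went both ways. Among 38 tested, 9 rose and 6 fell, with a median of 0.059; 39.5% were called, beside 30.1% of all genes. TIMP3, a metalloproteinase inhibitor, had 8.08 and 8.24 in the mimic arrays, against 7.13 and 6.85 in the control arrays and rose 2.25-fold (1.17 ± 0.12, adjusted p = 0.00412). CCN2, the connective tissue growth factor gene, had 4.58 and 4.59 in the mimic arrays, against 3.51 and 3.60 in the control arrays (1.03 ± 0.064, adjusted p = 0.00144). HMGA2, a chromatin protein gene, rose by 1.003 on its brightest probe set, and its 3 others were negative, down to -0.50. VIM, the gene of the mesenchymal filament vimentin, rose by 0.73.

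CDKN1A and CDKN2B, cyclin-dependent kinase inhibitor genes that TGF-beta is known to induce in epithelia, both fell. CDKN1A had 9.90 and 9.91 in the mimic arrays, against 11.04 and 11.04 in the control arrays (-1.13 ± 0.056, adjusted p = 0.00112), and CDKN2B had 8.49 and 8.36 in the mimic arrays, against 8.83 and 8.68 in the control arrays (-0.33 ± 0.084, adjusted p = 0.0420). The transcription factor genes ETS1 (-0.55) and SOX4 (-0.45) also fell. The Snail family genes moved in opposite directions, SNAI2 rising by 0.43 and SNAI1 falling (-0.27). With quantile normalization 8 genes of the list rose and 9 fell. Leaving out control replicate 1 left 4 that rose and 1 that fell, and leaving out control replicate 2 left 2 and 1.

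**Figure D4:**
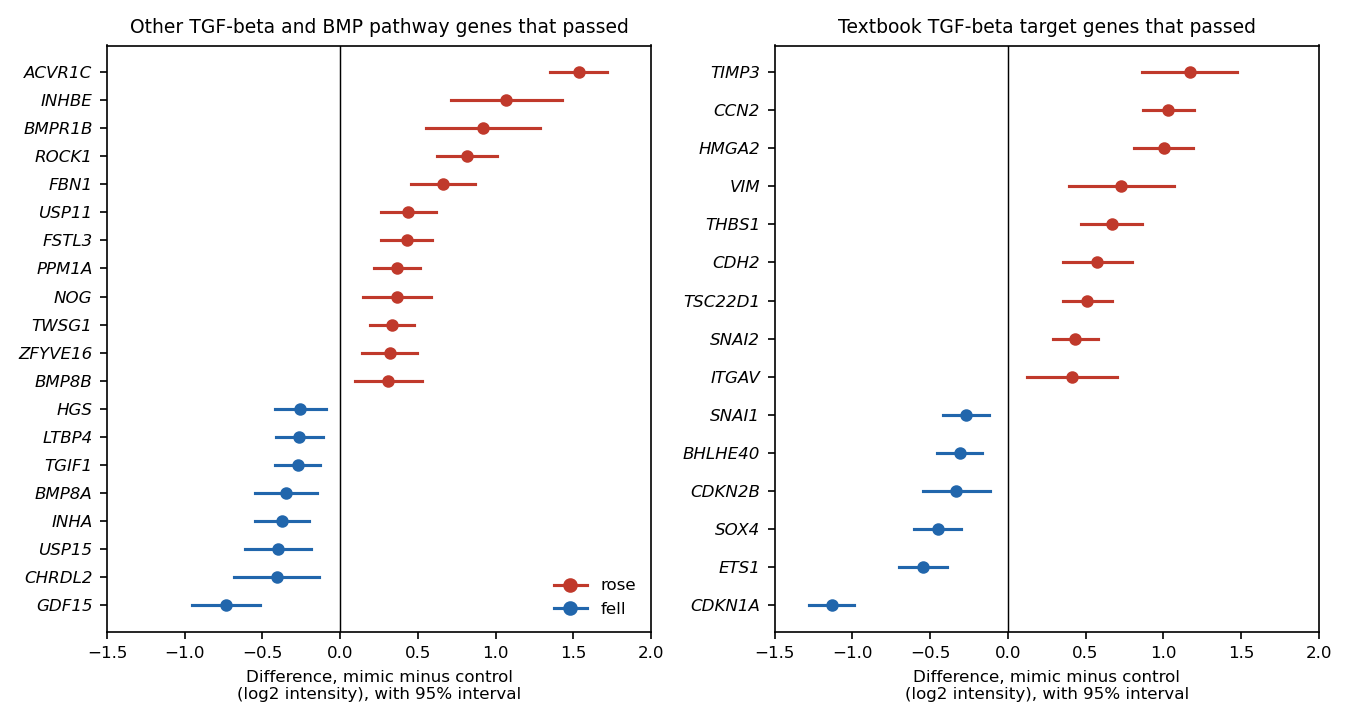
Differences between mimic and control arrays (log2 intensity, x axis) with limma's 95% intervals (n = 2 arrays per group) for the genes that passed among 69 other pathway genes (left) and 38 textbook TGF-beta targets (right); red genes rose and blue genes fell. Each list holds changes in both directions, from -0.74 for GDF15 to 1.53 for ACVR1C on the left and from -1.13 for CDKN1A to 1.17 for TIMP3 on the right.

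Promoter letters that SMAD proteins are known to bind were counted in RefSeq promoter windows of GRCh38.p14, 250 bases before to 50 after each annotated start, on both strands. The motifs, none of whose matches overlapped another motif's, were the SMAD palindrome GTCTAGAC, the SMAD box CAGAC and the GC element GGCGCC. Windows were found for 34 of the members, 65 in all, several of which overlap each other. The palindrome was in 1 of the 65 (1.54%), beside 0.202% of all 35116 windows, the SMAD box in 34 (52.3%), beside 45.3%, and the GC element in 17 (26.2%), beside 19.2%. These counts describe letters, not binding, and these arrays do not measure binding.

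The 3 windows shown are those of SMAD5, the member that rose most, BMPR2, a receptor gene that fell and whose window holds 4 SMAD boxes, and SMAD6, whose window holds the palindrome. Each is printed 5′ to 3′ along the gene, with the motifs in capitals.
SMAD5 (chr5:136132595-136132894, plus strand): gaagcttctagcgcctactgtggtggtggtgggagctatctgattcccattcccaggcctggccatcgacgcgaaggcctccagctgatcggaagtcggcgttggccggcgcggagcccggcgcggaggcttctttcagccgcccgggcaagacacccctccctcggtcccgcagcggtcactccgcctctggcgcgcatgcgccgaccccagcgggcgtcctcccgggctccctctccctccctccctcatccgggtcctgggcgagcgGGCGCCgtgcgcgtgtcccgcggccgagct
BMPR2 (chr2:202376077-202376376, plus strand): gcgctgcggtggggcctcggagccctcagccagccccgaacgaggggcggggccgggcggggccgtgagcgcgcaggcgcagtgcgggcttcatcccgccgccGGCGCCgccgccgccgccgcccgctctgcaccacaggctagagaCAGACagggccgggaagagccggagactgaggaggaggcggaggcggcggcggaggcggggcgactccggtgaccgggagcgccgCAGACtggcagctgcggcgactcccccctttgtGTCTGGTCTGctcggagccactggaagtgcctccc
SMAD6 (chr15:66701986-66702285, plus strand): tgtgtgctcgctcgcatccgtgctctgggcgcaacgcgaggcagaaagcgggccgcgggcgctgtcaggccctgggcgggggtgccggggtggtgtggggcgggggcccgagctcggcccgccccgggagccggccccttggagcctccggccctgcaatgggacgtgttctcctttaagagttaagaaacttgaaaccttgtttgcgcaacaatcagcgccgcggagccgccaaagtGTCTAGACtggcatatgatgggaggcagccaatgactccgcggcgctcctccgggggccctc
SMAD5 holds 1 GC element and no SMAD box, BMPR2 holds 4 SMAD boxes, 2 of them side by side, and 1 GC element, and SMAD6 holds the palindrome alone.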

How the data were processed

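The deposited values were 1 intensity per probe set and array on a linear scale (1.62 to 11401). The authors made them with RMA (background correction, quantile normalization and probe summary), per the submitters' processing notes; how it was run is not given in the sources used here. RMA compresses differences of dim probe sets, and the number of arrays limits the precision. Log2 was taken here.

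Of 49293 probe sets, 44988 had 1 gene symbol in the platform annotation, of which 44961 were matched by gene identifier to RefSeq (GRCh38.p14) for the current symbol. The 30% of probe sets with the lowest mean (log2 under 2.83, or an intensity of 7.10) were dropped, and each gene was represented by its brightest probe set, which left 14340 of 18132 genes. A second fit took all 31711 probe sets.

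The mimic group was compared with the control group in R 4.3.3 by limma 3.58.1 (lmFit, eBayes), with Benjamini-Hochberg adjustment over all features and a threshold of 0.05. There were 4.98 total degrees of freedom. The fit was tested on simulated data.

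The 37 members, their roles and both further gene lists were chosen with earlier results of these data known. All tested members were named; from each further list, up to 4 genes in each direction with the largest difference among those that passed were named, and the others mentioned were picked after their values were seen. Alternatives were other filters, scalings, priors, probe set choices, a replicate block and each array left out.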

Additional observations from a re-analysis of the deposited data

How the results depend on the processing

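With 2 arrays per group, the number of arrays limits the precision, and each call rests on the spread shared across genes. Of 470 recalculations of the 34 member differences over 14 alternatives, 365 kept direction and side of the threshold, 79 kept direction and lost the call, 8 gained a call and 18 changed sign; of those 18, 2 were of called genes, FST at 0.026 and SMAD4 at 0.19 with all probe sets averaged. TGFB1, INHBA, TGFBR1, TGFBR2, SMAD5, SMURF1 and PMEPA1 passed in every alternative run that kept all arrays, TGFBR1 and TGFBR2 having no probe set in that without _s_at and _x_at. The cause of the changes below was not tested.

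With the replicate block, 4 members rose and 5 fell (limma), 6 member probe sets fell, 3 other pathway genes fell and 979 of all genes fell, against 7, 9, 13, 8 and 1766 without it; the replicate numbers mark no stated pairing, and same-numbered arrays did not deviate together from their group means (r = -0.0010 across genes). The calls lost were those of FST, LTBP3, TGFBR3, BMPR2, SMAD4, SKI and SMURF2. With probe sets averaged 5 members fell. Without _s_at and _x_at probe sets 13 member probe sets rose, against 21, and with no filter 8 fell, against 13. With a trend in the prior 14 textbook targets rose, against 9.

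Over the 4 left-out arrays, 0 to 796 of all genes rose and 0 to 167 fell, 0 to 3 members rose and 0 to 1 fell, 0 to 3 other pathway genes rose and 0 fell, 0 to 4 targets rose and 0 to 1 fell. In each of these 4 fits 0 member probe sets rose or fell in limma, with 22 to 29 higher and 14 to 18 lower at an unadjusted p under 0.05 (22.4% to 29.6% and 14.3% to 18.4%, beside 15.2% to 19.7% and 9.68% to 15.3% of all probe sets).

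Sign changes of genes that did not pass were these. Averaged probe sets gave -0.085 for TGFB2 and 0.38 for BMP7 (adjusted p = 0.0344), quantile normalization gave -0.034 for BMP2, -0.042 for ACVR2A and -0.064 for SMAD2, and TGFBI was at -0.063 without _s_at and _x_at probe sets. Over the left-out arrays BMP7 ranged from -0.24 to 0.084, ACVR1 from -0.19 to 0.033, ACVR2B from -0.069 to 0.048, SMAD2 from -0.064 to 0.15, SMAD6 from -0.023 to 0.16, SKIL from -0.043 to 0.088 and TGFBI from -0.0097 to 0.077.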
